A study of Mus musculus with 15 samples.

Results

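Tslp and Crlf2 were followed across bulk RNA sequencing of mouse skin. Tslp encodes the cytokine thymic stromal lymphopoietin, and Crlf2 encodes the receptor chain that binds it. Both were found by gene symbol, 2 of the 18929 genes in the count table. Tslp was selected on its high values in 15 mm skin that received high cell density beads, so its values in any comparison that holds 15 mm samples are described here and were not tested. Crlf2 was taken as the receptor chain, and its comparisons were tested.

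The series held 15 samples, 3 in each of 5 groups, all from male balb/c mice of wild-type genotype, 4 to 6 weeks old. Of the groups, 4 came from full-thickness excisional wounds of the dorsal skin, 10 mm or 15 mm across, which were filled with printed Matrigel beads. The acellular groups received beads without cells. The HDB groups received high cell density beads loaded with human umbilical cord mesenchymal stromal cells (MSCs) and spaced by acellular beads. The normal group was unwounded skin. For the time of sampling, the methods name 4 weeks of implantation before sequencing but also state that wounds were followed until day 21. Nothing in the sources says how many mice made up a library or what a replicate number marks. The p-values therefore measure the spread between these samples, which may not be the spread between mice. How reads of the implanted human cells were handled is likewise not given in the sources used here, and every gene described is a mouse gene.

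TSLP is a cytokine of epithelial barriers, made in skin mainly by keratinocytes, and belongs to the alarmins with IL-33 and IL-25. It signals through a receptor of 2 chains, CRLF2 and the interleukin-7 receptor alpha chain (Il7r), which use the kinases JAK1 and JAK2 and activate STAT5. Dendritic cells that receive the signal make the chemokines CCL17 and CCL22 and the OX40 ligand (Tnfsf4), and they favour type 2 T cells, which make IL-4 and IL-13. In keratinocytes Tslp is known to be induced through the protease receptor PAR2 (F2rl1), and vitamin D and retinoid receptors act on the gene.

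Total counts per sample lay between 15840551 and 18404188. Within groups no library was a near copy of another, with a lowest chi-square per degree of freedom between replicates of 20.7. The tissue label fits its markers as far as these were measured: all 5 basal keratinocyte markers and all 7 fibroblast markers stood above 1 CPM (counts-per-million) in every sample. Normal skin held more skeletal muscle RNA than any wound, with the sum of 4 muscle markers at 31096 to 33087 CPM against 375 to 22556 CPM over the 12 wound samples. Libraries also differed in how short and long transcripts were represented. The mean log2 CPM of the shortest quartile of genes by transcript minus that of the longest quartile, each relative to the gene's mean, was 0.14 to 0.38 in the HDB 15 mm samples and -0.33 to -0.14 in the acellular 15 mm samples. Both genes have short transcripts, with a longest coding transcript of 1126 bases for Tslp and 1405 bases for Crlf2 in GENCODE M21. The 10 mm samples varied as well, from -0.14 to 0.19 in acellular and from -0.23 to 0.099 in HDB skin. Values with this length trend removed are given beside the comparisons of the 15 mm groups and of HDB with acellular skin at 10 mm.

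Tslp (Entrez gene 53603, a protein-coding gene on chromosome 18) was a low transcript in all 5 groups. In normal skin its 3 samples had 31, 48 and 63 counts, or 2.18, 3.21 and 4.23 CPM after TMM normalization. In HDB 15 mm skin they had 54, 62 and 49 counts, or 3.08, 3.76 and 2.77 CPM. The HDB 15 mm values lay inside the range of normal skin.

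In acellular 10 mm skin Tslp stood at 1.60, 1.80 and 2.51 CPM, from 28, 32 and 43 counts. In HDB 10 mm skin it stood at 1.42, 1.40 and 0.889 CPM, from 24, 26 and 16 counts. Acellular 15 mm skin held the lowest values, 0.794, 0.700 and 1.22 CPM, from 14, 12 and 23 counts. Each acellular 15 mm sample was below every acellular 10 mm, HDB 15 mm and normal sample, and its range overlapped that of HDB 10 mm.

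**Figure D1:**
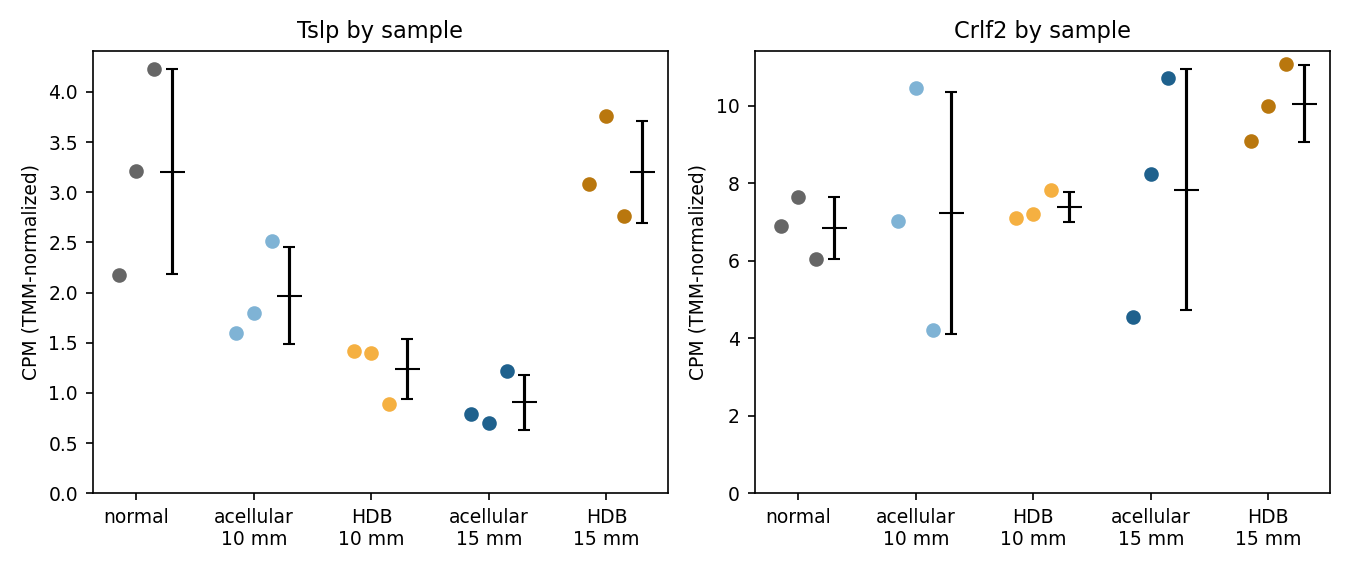
Levels of Tslp (left) and Crlf2 (right) in each of the 15 samples, in TMM-normalized CPM; points are samples and the bar beside each group is its mean ± SD (n = 3). Tslp in HDB 15 mm skin (2.77 to 3.76 CPM) lies within the range of normal skin and above the other 3 wound groups, while the Crlf2 ranges of neighbouring groups overlap.

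Ordered by mean, Tslp was at 3.21 ± 1.02 CPM in normal skin (SD, n = 3 here and for all group means), 3.20 ± 0.506 in HDB 15 mm, 1.97 ± 0.481 in acellular 10 mm, then 1.24 ± 0.301 in HDB 10 mm, with acellular 15 mm last at 0.905 ± 0.278. Normal and HDB 15 mm skin overlapped, and so did HDB 10 mm and acellular 15 mm. No overlap was found between HDB 15 mm and acellular 10 mm, nor between acellular 10 mm and HDB 10 mm.

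Counting error was a sizeable part of each Tslp value. As examples, the highest acellular 15 mm count, 23, has an exact 95% Poisson interval of 14.6 to 34.5, and the lowest HDB 15 mm count, 49, one of 36.3 to 64.8. Such intervals cover counting error only.

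At 15 mm, the size at which the gene was chosen, Tslp was 3.51-fold higher in HDB than in acellular skin (log2 fold change 1.81). With the length trend removed the log2 fold change was 1.43. The choice of the gene did not name what HDB 15 mm skin was compared with. Against normal skin the fitted log2 fold change was -0.0021 in HDB 15 mm and -1.81 in acellular 15 mm. With the length trend removed these were -0.10 and -1.53. Tslp was also higher in HDB 15 mm than in HDB 10 mm, by 1.37 on the log2 scale, and acellular 15 mm minus acellular 10 mm was -1.11. The length-adjusted values were 1.16 and -0.82. These values are descriptions, with no test.

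Among the samples that did not choose the gene, HDB was below acellular at 10 mm in all 3 samples. The log2 fold change there was -0.67 (SE 0.337, 95% interval -1.40 to 0.063), which did not pass edgeR's quasi-likelihood test (unadjusted p = 0.0698, Benjamini-Hochberg adjusted p = 1.00). With the length trend removed it was -0.56. The exact two-sided permutation test gave p = 0.1, the smallest that 3 samples against 3 can give. Of the 15369 genes tested in this comparison 0% were called by edgeR at an adjusted p under 0.05. In the same comparison 543 genes had an unadjusted p under 0.05, and DESeq2 called 17.

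Tslp was lower in HDB 10 mm than in normal skin, with all 3 samples below all 3 normal ones. The log2 fold change was -1.37 (SE 0.338, 95% interval -2.10 to -0.64), with an adjusted p of 0.0270 by edgeR. The exact permutation test again gave p = 0.1. Of all genes tested 6.23% fell and 6.10% rose in this comparison, which is 958 and 937 genes. Those counts were 39 and 39 without normal replicate 3, and 62 and 117 without HDB 10 mm replicate 2. The call was lost without HDB 10 mm replicate 2 (adjusted p = 0.0826) or 3 (0.106), and without normal replicate 2 (0.0686) or 3 (0.114).

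Acellular 10 mm skin overlapped normal skin in its Tslp values. Its log2 fold change against normal was -0.70 (SE 0.330, 95% interval -1.42 to 0.015), and it did not pass edgeR's test (adjusted p = 0.138). The exact permutation test gave p = 0.2. In this comparison 10.6% of all genes tested fell and 9.77% rose.

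**Figure D2:**
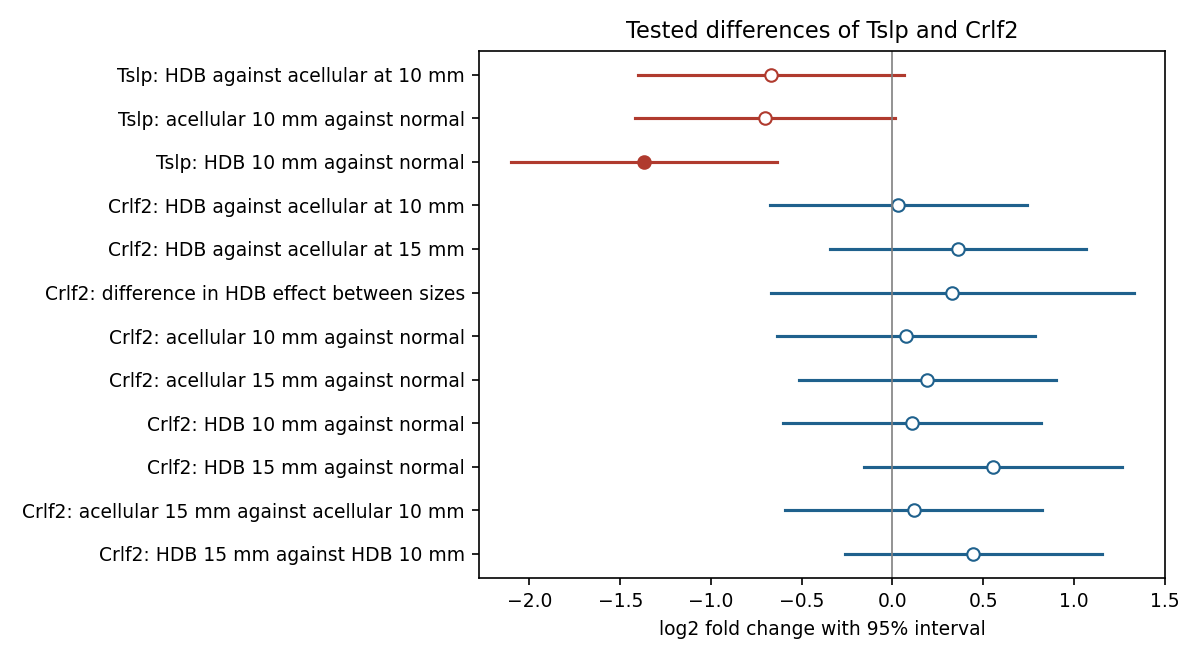
Fitted log2 fold changes of Tslp (red) and Crlf2 (blue) with 95% intervals, for the comparisons that were tested in edgeR's fit of 5 group means; a filled point has an adjusted p under 0.05. Only Tslp in HDB 10 mm against normal skin is filled (-1.37), and each Crlf2 interval spans 0.

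Levels of other cell types moved with some of these Tslp contrasts. In a bulk sample, fewer cells of a type and less RNA per cell cannot be told apart. In HDB against acellular skin at 10 mm the sum of the 7 fibroblast markers was 9013 to 11933 against 3569 to 5528 CPM, without overlap, and that of the 7 mast cell markers was 69.3 to 112 against 34.8 to 66.8 CPM. No other of the 14 marker sums was without overlap there. In HDB 10 mm against normal skin 9 of the 14 sums did not overlap. The sums lower in HDB 10 mm were those of macrophages (118 to 181 against 253 to 680 CPM over 6 markers), endothelium (98.4 to 197 against 405 to 452 CPM over 4), mast cells (69.3 to 112 against 119 to 248 CPM over 7), adipocytes (596 to 1413 against 2079 to 4343 CPM over 4) and skeletal muscle (449 to 22556 against 31096 to 33087 CPM over 4). The sums higher in HDB 10 mm were those of basal keratinocytes (9001 to 15188 against 5372 to 7387 CPM over 5 markers), wound keratinocytes (735 to 1266 against 390 to 527 CPM over 4), Langerhans cells (141 to 241 against 98.6 to 116 CPM over 2) and hair (shaft and root sheath, 32.6 to 40.8 against 8.65 to 10.0 CPM over 6). Several sums did not overlap between acellular 10 mm and normal skin either. Lower were those of fibroblasts (3569 to 5528 against 7292 to 24050 CPM) and suprabasal keratinocytes (1845 to 2444 against 3208 to 4002 CPM). Higher were those of wound keratinocytes (1185 to 2803 against 390 to 527 CPM) and Langerhans cells (187 to 325 against 98.6 to 116 CPM). Others separated there in both directions. The part of these cell types in the Tslp values was not tested.

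Marker sums also separated some groups behind the 15 mm values of Tslp. In HDB 15 mm against HDB 10 mm skin, those of macrophages (188 to 342 against 118 to 181 CPM), mast cells (135 to 188 against 69.3 to 112 CPM) and hair (106 to 427 against 32.6 to 40.8 CPM) were higher, and in acellular 15 mm against acellular 10 mm skin, that of adipocytes was higher (1228 to 3014 against 305 to 643 CPM). In acellular 15 mm against normal skin, 7 of the 14 sums did not overlap. Those of suprabasal keratinocytes (644 to 2197 against 3208 to 4002 CPM), macrophages (72.2 to 233 against 253 to 680 CPM), endothelium (124 to 203 against 405 to 452 CPM) and skeletal muscle (375 to 12174 against 31096 to 33087 CPM) were lower, and those of wound keratinocytes (886 to 3847 against 390 to 527 CPM), Langerhans cells (174 to 272 against 98.6 to 116 CPM) and hair (32.5 to 13106 against 8.65 to 10.0 CPM) were higher. In HDB 15 mm against normal skin 7 sums did not overlap either. Those of suprabasal keratinocytes (1409 to 1942 CPM), endothelium (107 to 312 CPM) and skeletal muscle (5492 to 16994 CPM) were below normal skin, and those of basal keratinocytes (8012 to 15679 CPM), wound keratinocytes (1081 to 2609 CPM), Langerhans cells (139 to 288 CPM) and hair (106 to 427 CPM) were above it. In HDB against acellular skin at 15 mm all 14 sums overlapped. Their part in the Tslp values was likewise not tested.

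Keratinocytes are the main known source of Tslp in skin, and their markers overlapped between the treatments at 15 mm. The basal sum was 8012 to 15679 CPM in HDB and 6218 to 14840 CPM in acellular skin. For the 6 suprabasal markers it was 1409 to 1942 against 644 to 2197 CPM, and for the 4 wound keratinocyte markers 1081 to 2609 against 886 to 3847 CPM. Over all 15 samples Tslp had a Pearson correlation of -0.24 with the basal sum and 0.39 with the suprabasal sum. Its correlations with the 14 marker sums ran from -0.46 for the 2 Langerhans cell markers to 0.56 for macrophages, and its correlation with the length trend was 0.52.

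The 5 genes whose log2 CPM followed Tslp most closely over the 15 samples were Mmp24, Cnih1, Smim11, Fdx1 and Nenf, with Pearson correlations of 0.93, 0.88, 0.88, 0.87 and 0.87. The 95th percentile of all other genes was 0.63. These samples share groups and length trend, the choice of Tslp entered the pattern, and the correlations are a description. Mmp24, a membrane-type matrix metalloproteinase, averaged 18.2 ± 1.14 CPM in normal and 17.7 ± 1.59 in HDB 15 mm skin, and 10.1 ± 1.76 in acellular 15 mm. Its 10 mm groups lay between, at 12.9 ± 1.12 CPM in acellular and 12.4 ± 1.40 in HDB skin.

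The same order held for Cnih1, a cargo receptor of the early secretory pathway, except that HDB 15 mm (104 ± 5.92 CPM) stood above normal skin (99.8 ± 4.75). Fdx1, the mitochondrial ferredoxin, was at 37.3 ± 2.12 CPM in normal skin, 32.2 ± 1.99 in HDB 15 mm and 20.7 ± 3.11 in acellular 15 mm. Nenf, a small secreted protein, was at 76.5 ± 5.39, 74.0 ± 6.13 and 40.1 ± 6.58 CPM, and Smim11, a small membrane protein, at 29.5 ± 4.08, 29.1 ± 2.14 and 17.5 ± 2.28 CPM in the same groups. In each of the 5 genes the HDB 15 mm and acellular 15 mm samples did not overlap. Their choice by likeness to Tslp favoured this, so it is no separate result. Smim11 and Nenf have short transcripts, of 782 and 742 bases, while that of Mmp24 has 4306 bases.

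**Figure D3:**
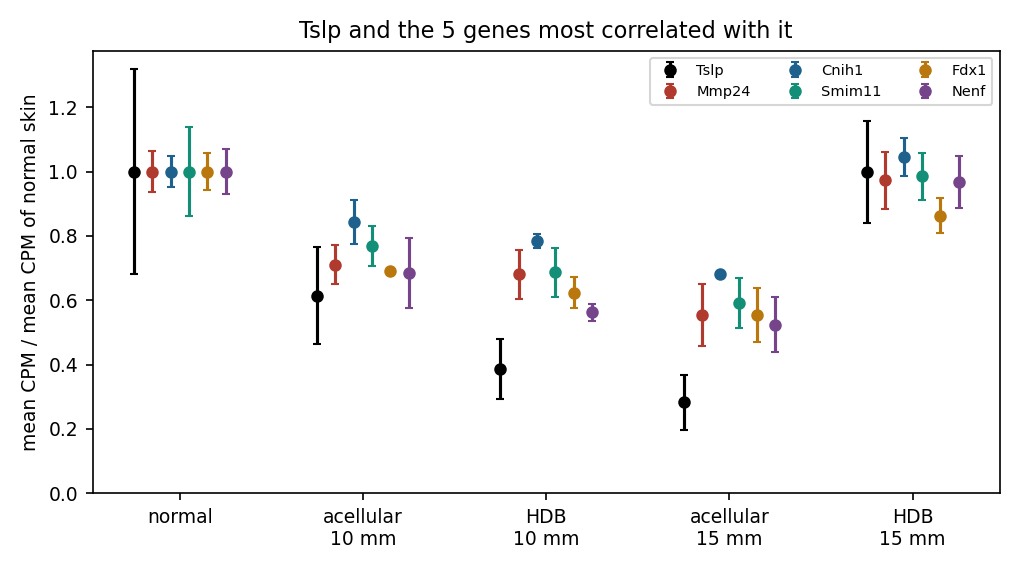
Tslp and the 5 genes most correlated with it over the 15 samples, as group mean CPM divided by the mean of normal skin (points, with SD on the same scale, n = 3 per group). All 6 genes are closest to their normal level in HDB 15 mm skin and lowest in acellular 15 mm skin, where Tslp is lower, relative to normal skin, than the other 5. The 5 were picked for their likeness to Tslp in these samples, which favours a shared pattern.

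Crlf2 (Entrez gene 57914, protein-coding, GRCm38.p6 chr5:109554709-109559128) was more abundant per length than its ligand. Mean CPM per kilobase of longest coding transcript over the 15 samples was 5.60 for Crlf2, above 38.3% of 15040 genes, and 1.87 for Tslp, above 19.3%. Its partner chain Il7r was at 4.67, above 33.7%.

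In normal skin Crlf2 was at 6.89, 7.63 and 6.04 CPM, and in HDB 10 mm skin at 7.10, 7.21 and 7.83 CPM. HDB 15 mm skin had the highest mean, from 9.08, 10.0 and 11.1 CPM. These 3 groups were tight, and HDB 15 mm lay above both of the others without overlap. The acellular groups were wider, at 7.02, 10.4 and 4.21 CPM at 10 mm and at 4.53, 8.23 and 10.7 CPM at 15 mm. Each acellular group reached from below all normal samples to within the range of HDB 15 mm.

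Ordered by mean, Crlf2 was at 10.1 ± 0.993 CPM in HDB 15 mm, 7.83 ± 3.11 in acellular 15 mm, 7.38 ± 0.393 in HDB 10 mm, 7.23 ± 3.12 in acellular 10 mm and 6.85 ± 0.799 in normal skin. All neighbours in this order overlapped. Counts per sample ran from 72 to 202.

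Crlf2 passed edgeR's test in HDB against acellular skin at neither size. At 10 mm the log2 fold change was 0.030 (SE 0.326, 95% interval -0.68 to 0.74, adjusted p = 1.00), and it was 0.17 with the length trend removed. At 15 mm it was 0.36 (SE 0.325, 95% interval -0.35 to 1.07, adjusted p = 0.528), and it was 0.044 with the length trend removed. Both intervals leave room for changes of over 1.5-fold. Among all genes tested at 15 mm, 0.579% rose and 2.35% fell, which is 89 and 361 genes. These counts were 40 and 139 with the replicate block. They were 0 and 0 with only the groups compared, where 1600 genes had an unadjusted p under 0.05, and 0 and 0 without HDB 15 mm replicate 1, 2 or 3, where 2545 to 3083 genes did. Without acellular 15 mm replicate 1 they were 25 and 127, and without replicate 3 524 and 1798. DESeq2 called 599 and 1575.

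The difference in the HDB effect between the sizes was 0.33 for Crlf2 on the log2 scale (SE 0.461, 95% interval -0.67 to 1.33, adjusted p = 0.818 by edgeR). It was -0.12 with the length trend removed. For this difference 0% of all genes were called, 2063 had an unadjusted p under 0.05, and DESeq2 called 868.

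Against normal skin, HDB 15 mm gave the largest Crlf2 value of the 4 wound groups. Its log2 fold change was 0.55 (SE 0.327, 95% interval -0.16 to 1.26), with all 3 samples above all 3 normal ones. It did not pass edgeR's test in the fit of all 5 groups (adjusted p = 0.296), and the exact permutation test gave p = 0.1. In a fit of only these 2 groups it was 0.56 with an adjusted p of 0.0468, and with the length trend removed it was 0.45 (adjusted p = 0.371). Genes called in this comparison made up 2.67% (higher) and 2.51% (lower) of all tested.

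Crlf2 in the other wound groups lay closer to normal skin and passed no test by edgeR. For acellular 10 mm the log2 fold change was 0.077 (adjusted p = 0.879), for acellular 15 mm 0.19 (adjusted p = 0.679) and for HDB 10 mm 0.11 (adjusted p = 0.851). With the length trend removed acellular 15 mm gave 0.41 (adjusted p = 0.324). In acellular 15 mm against normal skin 17.6% of all genes rose and 12.6% fell.

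Between wound sizes, Crlf2 was higher in HDB 15 mm than in HDB 10 mm in all 3 samples, by 0.45 on the log2 scale (95% interval -0.26 to 1.15, edgeR adjusted p = 0.617, exact permutation p = 0.1). In acellular skin 15 mm minus 10 mm was 0.12 (edgeR adjusted p = 0.884), and the samples overlapped. With the length trend removed these values were 0.25 and 0.38, and neither passed edgeR's test (adjusted p = 0.888 and 0.592). In these comparisons of size 0% of all genes were called in HDB skin, with 1896 at an unadjusted p under 0.05 and 563 called by DESeq2. For acellular skin the call rate was also 0%, with 2684 genes at an unadjusted p under 0.05 and 1049 called by DESeq2.

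Ligand and receptor chain were weakly correlated over the 15 samples. Their Pearson correlation in log2 CPM was 0.12 and their Spearman correlation 0.025. Crlf2 and Il7r had a Pearson correlation of 0.73 and a Spearman correlation of 0.71. The genes closest to Crlf2 were Lpxn (Pearson 0.89), Cyp7b1 (0.89), Gpr65 (0.89), Cyba (0.89) and Dennd1c (0.89), against a 95th percentile of 0.66 over all other genes. Lpxn (leupaxin) is an adaptor found in leukocytes, Gpr65 a proton-sensing receptor of immune cells, and Cyba the light chain of the phagocyte oxidase. Cyp7b1, a hydroxylase of oxysterols, averaged 5.63 ± 0.776 CPM in HDB 15 mm and 3.62 ± 0.811 in normal skin, and Dennd1c 10.6 ± 2.01 and 6.55 ± 0.810 CPM.

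Of the 14 marker sums, that of the 8 dendritic cell markers had the highest correlation with Crlf2 (Pearson 0.79), ahead of basophils and eosinophils (0.66) and T cells (0.62). The wide spread of the acellular groups ran along with this sum, and also with that of macrophages. The acellular samples lowest in Crlf2, replicate 3 at 10 mm and replicate 1 at 15 mm, had the lowest dendritic cell sums of all 15 samples, 44.0 and 21.7 CPM. The highest acellular samples, replicate 2 at 10 mm and replicate 3 at 15 mm, had 143 and 168 CPM. The macrophage sums of these samples, in the same order, were 62.1, 72.2, 173 and 233 CPM.

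In the HDB 15 mm group, highest in Crlf2, the dendritic cell sum was 78.4 to 130 CPM, overlapping the 71.2 to 132 CPM of normal skin. In all 5 groups at least 7 of the 8 dendritic cell markers were above 1 CPM in every sample. The basophil and eosinophil sum stayed at 0.170 to 1.88 CPM over 5 markers, none of which passed 1 CPM in all samples of a group. T cell markers summed to 3.40 to 37.5 CPM. The part of cell numbers in the Crlf2 values was not tested.

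**Figure D4:**
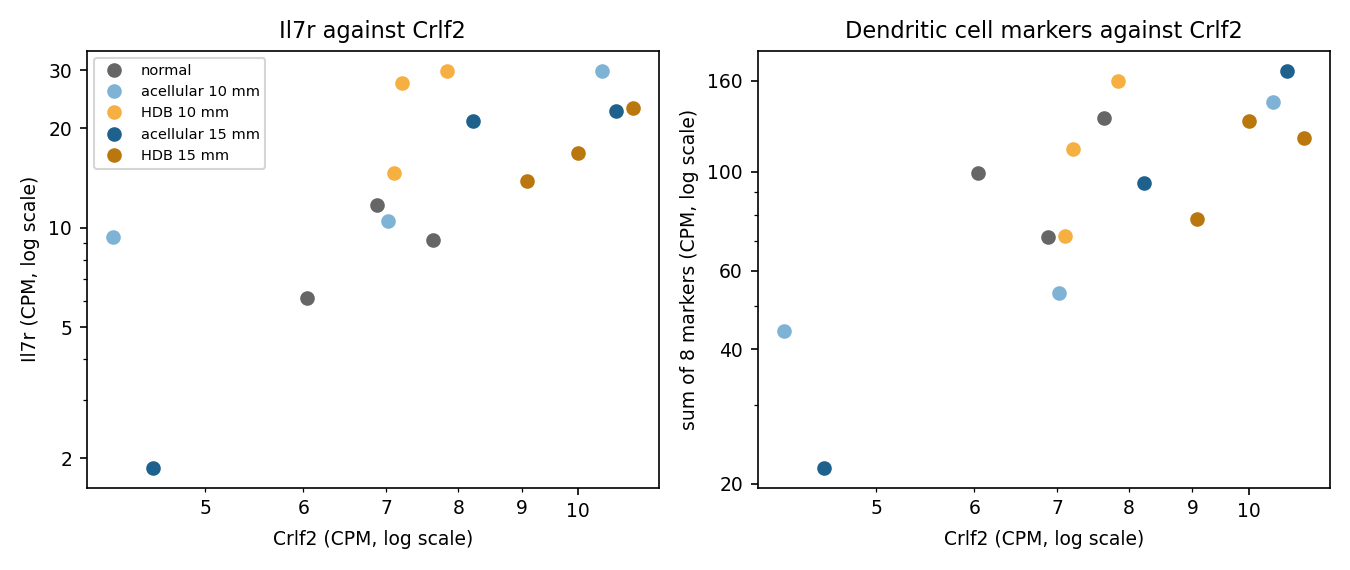
Crlf2 against Il7r (left) and against the sum of 8 dendritic cell markers (right), all in CPM on log axes; each point is 1 of the 15 samples, coloured by group. The acellular samples run from the lowest to near the highest values on both axes, with acellular 15 mm replicate 1 lowest in Il7r (1.87 CPM) and in the dendritic cell sum (21.7 CPM).

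Il7r, the second receptor chain, was more variable than Crlf2. Normal samples had 11.7, 9.17 and 6.10 CPM, HDB 10 mm samples 14.6, 27.4 and 29.9 CPM, and HDB 15 mm samples 13.9, 16.9 and 23.0 CPM. Both HDB groups stood above normal skin without overlap. Acellular skin ranged from 9.35 to 29.9 CPM at 10 mm and from 1.87 to 22.5 CPM at 15 mm, across the values of the other groups.

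Fitted against normal skin, Il7r gave log2 fold changes of 1.41 in HDB 10 mm (SE 0.697, edgeR adjusted p = 0.184) and 0.99 in HDB 15 mm (SE 0.693, adjusted p = 0.376). HDB minus acellular was 0.53 at 10 mm and 0.24 at 15 mm, with edgeR adjusted p-values of 1.00 and 0.855. No Il7r comparison between HDB, acellular and normal skin passed the test.

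The kinases that the receptor uses varied less. In the 4 wound groups against normal skin Jak1 had log2 fold changes of -0.40 to -0.19 and Jak2 of -0.24 to 0.090, and none passed edgeR's test. For the signal transducers, Stat5a was between -0.31 and -0.0085. Stat5b fell in acellular 15 mm skin, from 103 ± 6.44 CPM in normal skin to 55.6 ± 20.3 CPM (log2 fold change -0.88, SE 0.291, edgeR adjusted p = 0.0379). The call was kept in 8 of 15 alternatives, and the adjusted p was 0.105 with only the groups compared. In the other 3 wound groups Stat5b was -0.77 to -0.60 and did not pass. The skeletal muscle and endothelium sums were likewise below normal skin without overlap in all 4 wound groups, and that of macrophages in each but HDB 15 mm, and their part in the Stat5b values was not tested.

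A list of 61 pathway genes around TSLP, in 6 groups by role, was counted in the same way. Of these 60 were in the table and 54 had enough counts to be tested. For the 10 mm contrast of HDB and acellular skin, edgeR called 0 of the 54, 3 had an unadjusted p under 0.05, and DESeq2 called 0. Their median log2 fold change was 0.094, against -0.0083 over all genes tested.

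At 15 mm, where edgeR called 0.579% of all genes higher and 2.35% lower, 1 of the 54 was called. The gene was Notch2, a Notch receptor of keratinocytes. It had 99.9, 96.8 and 89.5 CPM in HDB and 153, 120 and 129 CPM in acellular skin, without overlap. Its log2 fold change was -0.49 (SE 0.121, edgeR adjusted p = 0.04998, just under the threshold), with an adjusted p of 0.0784 when replicate numbers were fitted as a block. The call was also lost without acellular 15 mm replicate 1 or any 1 of the 3 HDB 15 mm replicates. With the length trend removed the Notch2 log2 fold change itself shrank to -0.085 (adjusted p = 0.724), or to -0.082 with the replicate block as well (adjusted p = 0.752). In that fit without the block edgeR called 0 pathway genes at 15 mm and 0 of all genes, of which 2598 had an unadjusted p under 0.05. The median of the 54 was 0.089, against 0.0041 over all genes.

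F2rl1, which encodes PAR2, had the same order as Tslp at 10 mm but not at 15 mm. At 15 mm its HDB and acellular samples overlapped, with a difference in mean log2 CPM of -0.32. At 10 mm its values were 26.4, 39.2 and 34.8 CPM in HDB and 63.6, 54.7 and 47.6 CPM in acellular skin, without overlap. The log2 fold change was -0.72 (SE 0.226, unadjusted p = 0.00724, edgeR adjusted p = 1.00), so the call over all genes was not reached. F2rl1 rose in acellular 10 mm against normal skin, by 0.95 on the log2 scale (SE 0.228, edgeR adjusted p = 0.0166). In the same comparison the basal keratinocyte sum was 12679 to 18727 against 5372 to 7387 CPM and the wound keratinocyte sum 1185 to 2803 against 390 to 527 CPM, and their part in the F2rl1 value was not tested. Tslp in that comparison was at -0.70 and did not pass.

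Among 22 keratinocyte genes known to induce or repress Tslp, 21 were tested. In acellular 10 mm against normal skin 6 rose and 0 fell, where 9.77% of all genes rose and 10.6% fell. In HDB 10 mm 4 rose and 0 fell (all genes 6.10% and 6.23%). In acellular 15 mm 6 rose and 3 fell (all genes 17.6% and 12.6%), and in HDB 15 mm 2 rose and 0 fell (all genes 2.67% and 2.51%).

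The vitamin D receptor Vdr and the retinoic acid receptor Rarg rose in all 4 wound groups against normal skin. Vdr was at 51.0 to 69.5 CPM in normal skin and at 121 to 372 CPM in the 12 wound samples, without overlap. On the log2 scale it was higher by 1.75 in acellular 10 mm, by 1.47 in HDB 10 mm, by 2.29 in acellular 15 mm and by 1.59 in HDB 15 mm, with edgeR adjusted p-values of 0.00671, 0.0180, 0.00239 and 0.0244. Rarg rose by 0.94, 0.72, 0.67 and 0.63 in the same order, with edgeR adjusted p-values of 0.00498, 0.0143, 0.00744 and 0.0338. The Rarg call in HDB 15 mm was kept in 8 of 15 alternatives. Keratinocyte markers moved along with these genes: the wound keratinocyte sum was 735 CPM or more in all 12 wound samples against 527 CPM at most in normal skin, and the basal sum was above normal skin without overlap in each wound group but acellular 15 mm. The part of these cells in the Vdr and Rarg values was not tested.

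Notch1 rose by 1.42 in acellular 15 mm skin (SE 0.242, edgeR adjusted p = 0.00372). The genes of the keratinocyte list that fell there were Klk5, a kallikrein protease that activates PAR2 (log2 fold change -1.73, SE 0.515, edgeR adjusted p = 0.0261), its inhibitor Spink5 (-1.51, SE 0.419, adjusted p = 0.0198), and Stim1, a sensor of store-operated calcium entry (-0.92, SE 0.258, adjusted p = 0.0210). Il1r1, the interleukin-1 receptor, also rose there. In the same comparison the suprabasal keratinocyte sum was lower (644 to 2197 against 3208 to 4002 CPM), as was that of skeletal muscle (375 to 12174 against 31096 to 33087 CPM), and their part in these falls was not tested.

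Il1b was called higher in HDB 10 mm than in normal skin (log2 fold change 5.08, SE 1.31, edgeR adjusted p = 0.0313). The 3 HDB 10 mm samples had 4.56, 219 and 17.9 CPM against 1.55 to 2.95 CPM in normal skin. Without replicate 2 the log2 fold change was 2.25 and the call was lost (edgeR adjusted p = 0.174).

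**Figure D5:**
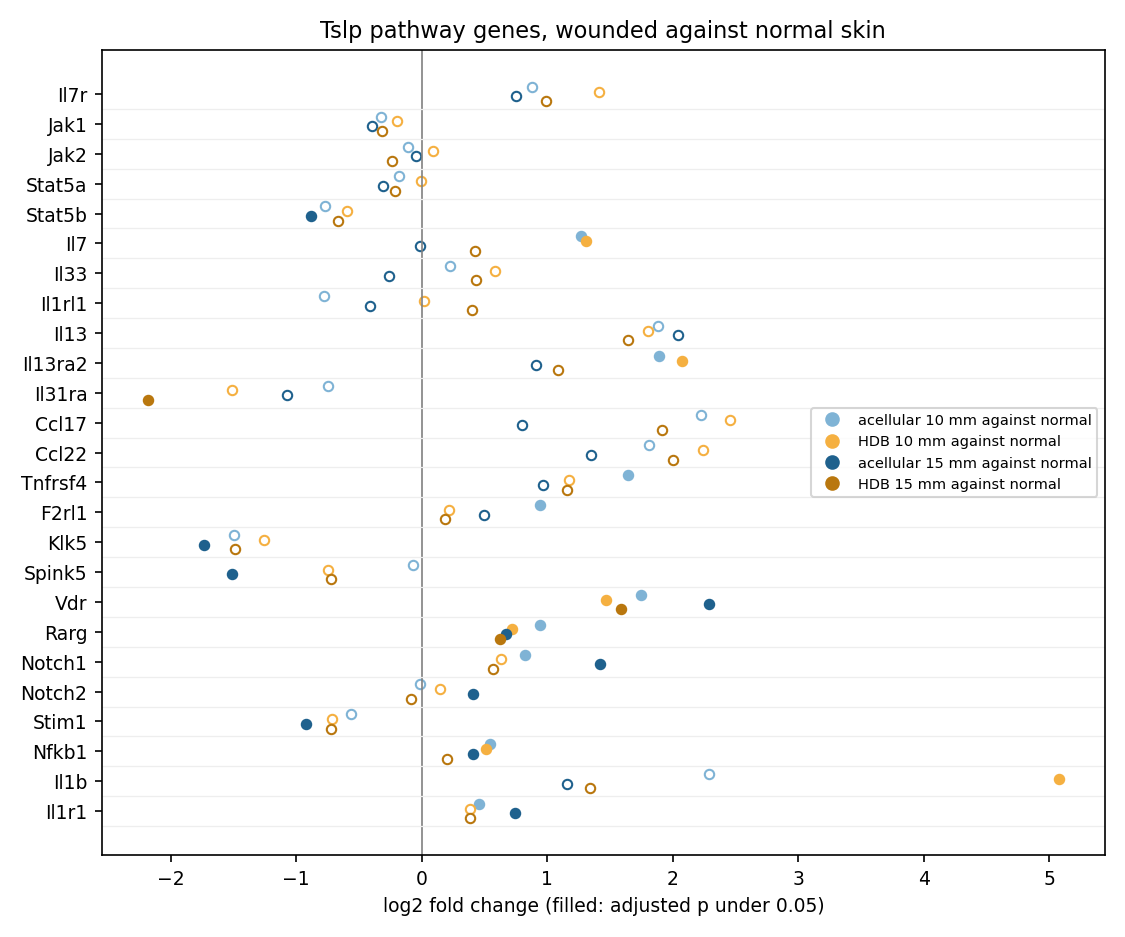
Log2 fold changes of 25 pathway genes in each of the 4 wound groups against normal skin, from edgeR's fit; a filled point has an adjusted p under 0.05. Vdr and Rarg are filled in all 4 comparisons, Stat5b, Klk5, Spink5 and Stim1 lie to the left and are filled in acellular 15 mm, and Il1b in HDB 10 mm (5.08) lies far to the right.

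The other alarmins gave no call between HDB and acellular skin. Il33 was at 42.3, 37.7 and 41.2 CPM in HDB 15 mm skin and at 5.44, 24.4 and 45.1 CPM in acellular 15 mm skin, with overlap. Its log2 fold change was 0.69 (SE 0.481, edgeR adjusted p = 0.405). Its receptor Il1rl1 (ST2) had a log2 fold change of 0.81 at 15 mm and 0.79 at 10 mm, with edgeR adjusted p-values of 0.423 and 1.00. Il25 had 0 to 6 counts per sample and was not tested. By edgeR, none of the 5 tested genes of this group, which leaves out Tslp and Crlf2, was called in the 6 comparisons between HDB, acellular and normal skin.

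Of the products of dendritic cells, Ccl17 and Ccl22 were higher in each wound group than in normal skin by fitted value. Ccl22 averaged 2.47 ± 0.677 CPM in normal skin and 11.7 ± 4.60 in HDB 10 mm, 9.93 ± 4.97 in HDB 15 mm, 8.69 ± 5.80 in acellular 10 mm and 6.30 ± 5.58 in acellular 15 mm. The largest log2 fold change, in HDB 10 mm, was 2.24 (SE 0.722, edgeR adjusted p = 0.0596) and did not pass. Ccl17 gave 0.80 to 2.46 against normal skin, at means of 0.362 to 2.02 CPM, with no call. HDB minus acellular at 15 mm was 1.11 for Ccl17 and 0.66 for Ccl22 (edgeR adjusted p = 0.510 and 0.590).

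Tnfsf4, the OX40 ligand, had 0 to 6 counts per sample and was not tested. Tnfrsf4, its receptor OX40, rose in acellular 10 mm against normal skin by 1.64 (SE 0.371, edgeR adjusted p = 0.0138). Of the 8 tested genes of this group it was the only one that edgeR called against normal skin. In acellular 10 mm against normal skin edgeR called 9.77% of all genes higher and 10.6% lower.

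Type 2 cytokines were near the limit of detection. Il4 had 0 to 3 counts per sample and was not tested. Il13 had 0 to 16 counts, with fitted log2 fold changes of 1.65 to 2.04 against normal skin and no call. Il13ra2, a decoy receptor of IL-13, rose in acellular 10 mm by 1.89 (SE 0.443) and in HDB 10 mm by 2.07 (SE 0.445), with edgeR adjusted p-values of 0.0154 and 0.0183. Il31ra, a receptor chain for the itch cytokine IL-31, fell in HDB 15 mm against normal skin, from 27.3 to 30.4 CPM in normal samples to 4.49 to 7.43 CPM (log2 fold change -2.18, SE 0.505, edgeR adjusted p = 0.0348). This call was kept in 7 of 15 alternatives. It was below normal in all 3 samples of each of the other wound groups too, with log2 fold changes of -1.51 to -0.75 that did not pass.

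Il7, the other ligand of the Il7r chain, rose at 10 mm. It was at 5.38 ± 1.08 CPM in normal skin, 13.0 ± 0.876 in acellular 10 mm and 13.3 ± 3.79 in HDB 10 mm, with log2 fold changes of 1.27 and 1.31 (edgeR adjusted p = 0.0314 and 0.0395). Marker sums of several cell types separated each wound group from normal skin. Their part in the Il7, Il13ra2, Tnfrsf4 and Il31ra values was not tested. At 15 mm Il7 averaged 5.34 ± 3.04 CPM in acellular and 7.22 ± 0.633 CPM in HDB skin and was not called against normal skin.

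Over the whole list of 54 tested, edgeR called 9 higher and 0 lower than normal skin in acellular 10 mm, where it called 9.77% of all genes higher and 10.6% lower. In HDB 10 mm it called 6 higher and 0 lower (all genes 6.10% and 6.23%), in acellular 15 mm 6 higher and 4 lower (all genes 17.6% and 12.6%), and in HDB 15 mm 2 higher and 1 lower (all genes 2.67% and 2.51%). No reading of the list against all genes is drawn, since both depended on the setting and on single libraries. With only the groups compared, acellular 15 mm gave 430 higher and 542 lower of all genes, in place of 2701 and 1941. The other wound groups gave more in that setting than in the main fit. These were 2980 and 3216 in acellular 10 mm, 1577 and 1411 in HDB 10 mm, and 1719 and 1682 in HDB 15 mm. The same held for single libraries: with 1 replicate left out, the genes called higher and lower in HDB 15 mm, 411 and 385 with all samples, were at their fewest 22 and 12 (without normal replicate 3), and were 43 and 13 without HDB 15 mm replicate 1, 29 and 14 without replicate 3, 28 and 15 without normal replicate 1 and 67 and 67 without normal replicate 2. Without HDB 15 mm replicate 2 they went the other way, to 702 and 638. In acellular 10 mm 1501 and 1624 became 340 and 562, and in acellular 15 mm 2701 and 1941 became 1263 and 1041, both without normal replicate 3. The medians were 0.20, 0.27, 0.13 and 0.20 on the log2 scale, against 0.028, 0.022, 0.059 and 0.019 over all genes. These comparisons share the 3 normal samples. With 1 replicate left out at a time, 23 of the 29 pathway calls, Notch2 at 15 mm included, were lost at least once. The 6 kept each time were Vdr and Rarg in acellular 10 mm and in acellular 15 mm, and Notch1 and Il1r1 in acellular 15 mm. In HDB 10 mm no pathway gene was called without HDB 10 mm replicate 2 or normal replicate 3, and in HDB 15 mm none was called without HDB 15 mm replicate 1 or 3 or any 1 of the normal replicates. For the difference in the HDB effect between sizes 0 of the 54 were called by edgeR, 3 had an unadjusted p under 0.05, and DESeq2 called 1.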

How the data were processed

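RNA was measured in 15 mouse skin samples by poly(A) RNA sequencing. Per gene, the values that the authors deposited are estimated counts (expected counts), not normalized. The submitters' processing notes name HISAT2 2.0.4, Bowtie2 2.2.5, RSEM 1.2.12 and the build GRCm38.p6, without their roles. Columns were matched to samples by name. The counts were rounded and tested in R 4.3.3 with edgeR 4.0.16: TMM normalization, filterByExpr (15369 genes kept), 1 fit of 5 group means, the quasi-likelihood test and Benjamini-Hochberg adjustment over all genes, with a threshold of 0.05. A standard error is the log2 fold change over the root of F. Log2 CPM used a prior count of 2. CPM per kilobase and the length trend used GENCODE M21 transcripts (98.2% of tested genes). Exact permutation tests had 20 arrangements. The scripts were tested on simulated data.

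The members, the pathway and marker lists and the tests were chosen with earlier results of these data known. The genes named were 14 set pathway genes, those called in HDB against acellular skin, up to 3 that most rose and 3 that most fell against normal skin, and the 5 most correlated with each member. Other called genes named, such as Il7 and Rarg, were picked after their values were seen. Alternatives were DESeq2 1.42.0, other filters and factors, a replicate block, the length trend removed, only the groups compared, and each replicate left out. Same-numbered samples deviated together in acellular and HDB 15 mm skin (correlations 0.40, 0.17 and 0.18) and in no other pair of groups. The main fit did not pair them. The replicate block was fitted over all 15 samples, not over these groups alone.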

Additional observations from a re-analysis of the deposited data

Results flagged for a closer look

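Tslp in HDB against acellular skin had opposite signs at the 2 wound sizes, which is why it is listed here. At 10 mm its log2 fold change was -0.67, with all 3 HDB samples below all 3 acellular samples, and at 15 mm it was 1.81, with all 3 HDB samples above. The 10 mm value did not pass edgeR's test. It was -0.56 with the length trend removed and -0.80 to -0.46 with replicates left out. The difference between these effects, 2.48 on the log2 scale, was not tested, because the 15 mm values chose the gene. It was 1.99 with the length trend removed.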

How the results depend on the processing

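Tslp in HDB against acellular skin at 15 mm stayed between 1.43 and 1.86 on the log2 scale over the other settings and between 1.66 and 2.09 with replicates left out. It was 1.43 with the length trend removed and 1.46 with the replicate block as well, and the difference between sizes was then 1.99 and 1.98. Tslp has no value under a filter of a mean count of 50. In HDB 10 mm against normal skin it was -1.22 with the length trend removed and the replicate block, where the call was lost (edgeR adjusted p = 0.0620), and -1.58 to -1.11 with replicates left out. Its adjusted p there ran from 0.00126 to 0.114.

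Crlf2 values near 0 changed sign. With replicates left out its log2 fold change ran from -0.24 to 0.39 in HDB against acellular skin at 10 mm, from -0.033 to 0.63 for the difference between sizes, from -0.29 to 0.35 in acellular 10 mm and from -0.10 to 0.47 in acellular 15 mm against normal skin, and from -0.18 to 0.48 in acellular 15 mm against 10 mm. The difference between sizes was -0.12 with the length trend removed, with or without the replicate block. In HDB 15 mm against normal skin it was 0.56 and called with only the groups compared. The cause was not tested.

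The count of pathway genes called in HDB against acellular skin at 15 mm, 1, was 2 with DESeq2 and 0 with no filter, the replicate block, upper quartile factors, the length trend removed (also with the replicate block) or only the groups compared, and 0 to 4 with replicates left out. Against normal skin, acellular 10 mm (9) gave 14 with DESeq2, 24 with only the groups compared and 2 to 7 with replicates left out. Acellular 15 mm (10) gave 4 with only the groups compared and 4 to 14. HDB 10 mm (6) gave 19 with DESeq2, 17 with only the groups compared and 0 to 12, with 0 without HDB 10 mm replicate 2 or normal replicate 3. HDB 15 mm (3) gave 7 with DESeq2, 1 with the replicate block (also with the length trend removed), 14 with only the groups compared and 0 to 3. The replicate block changed no call of Tslp or Crlf2 by itself. Against normal skin, where same-numbered samples did not deviate together, it lost the calls of Stat5b in acellular 15 mm (edgeR adjusted p = 0.0512), Il1r1 in acellular 10 mm (0.0686), and Il31ra (0.0635) and Rarg (0.0641) in HDB 15 mm. Low Tslp counts limit its precision.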
